A study of Mus musculus with 6 samples.

Results

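The data are RNA sequencing levels of single transcripts in GC2 (GC-2spd) cells, an immortalised mouse line that the labels call a spermatocyte line. Testis is named in the design text of the series, but not in any label of a sample. There were 2 libraries from cells exposed to triptonide, 2 from cells exposed to triptolide (spelt Tiptolide in the labels) and 2 from control cells. The transcripts described here were low or lost after triptolide and stayed near the control level after triptonide. They are rows with a mouse Ensembl transcript ID whose level reached at least 2 FPKM in each control library, with a control mean under 200 FPKM. FPKM counts the fragments of a transcript per kilobase of its length and per mapped fragments of the library. It is thus relative to its library, and a fall common to all transcripts would not show in it. The triptolide mean of the chosen rows was at most 1/3 of the control mean, with both triptolide values below both control values. Each of their triptonide values was at least 0.75 times the control mean. In total 108 transcripts met these conditions, of 65189 annotated transcripts and 65535 rows in the table. All 6 libraries entered the choice, so the levels below are a description of what was chosen and carry no test.

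Triptolide is a natural product of thunder god vine, Tripterygium wilfordii. It binds XPB, a subunit of the general transcription factor TFIIH, and blocks the start of transcription by RNA polymerase II. While transcription is blocked, the level of an RNA depends on how fast it decays, so short-lived RNAs run down before stable ones. Triptonide, from the same plant, carries a ketone where triptolide has a hydroxyl group. The protocol in the labels gives 0.1 µM triptolide for 24 h in the same words for every sample and states no dose of triptonide. The values after the 2 compounds are therefore set side by side, and no comparison at matched doses was possible. Whether control cells received a vehicle is not stated, and the labels leave unsaid whether libraries of 1 group are separate cultures.

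The table pairs no transcript with a gene, and the gene tables used here hold no transcript IDs, so the 108 are given by ID, without gene names, roles or sequences. For the same reason the spermatocyte label could not be set against marker genes. Relative depths, read from the steps among low FPKM values, were 0.763 and 0.737 for the triptonide libraries, 0.599 and 0.674 for the triptolide libraries and 0.818 and 1.0 for the control libraries. The triptolide libraries were thus the shallowest. Transcripts above 0 numbered 41088 and 41680 after triptolide, 40956 and 41054 after triptonide, and 36592 and 37997 in control. The part of depth in the low triptolide values was not tested. Where transcripts overlap, the quantification has to apportion their common fragments, which makes the level of 1 isoform less sure than a gene total. A transcript with an exact 0 is said to be listed at 0, since the estimate may have failed. In bulk RNA, fewer cells with a transcript and less of it per cell cannot be told apart.

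The 108 transcripts were a small part of what was low after triptolide. Of 9303 annotated transcripts within the control limits, 1134 or 12.2% met the triptolide condition, 5723 or 61.5% met the triptonide condition, and 108 or 1.16% met both. Seen from the 1134 lost transcripts, 9.52% were kept after triptonide. Seen from the 5723 kept transcripts, 1.89% were lost after triptolide. The median triptonide mean of the 108 was 92.6% of control, against 55.6% for the other 1026 lost transcripts, a difference that the rule itself made.

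The lost transcripts formed 1 continuous distribution by their lower triptonide value, and the 108 were its upper end. In 223 of the 1134 that value was under 0.25 times the control mean, in 343 it lay from 0.25 to 0.5, and in 460 from 0.5 to 0.75. Among the 108 it lay from 0.75 to 1 in 90, from 1 to 1.5 in 16, and at 1.5 or more in 2. No gap separated the 108 from the transcripts below the limit. ENSMUST00000108298 and ENSMUST00000133149 stood just inside at 0.7506 and 0.7517, and ENSMUST00000128949 and ENSMUST00000128978 just outside at 0.7496 and 0.7494.

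**Figure D1:**
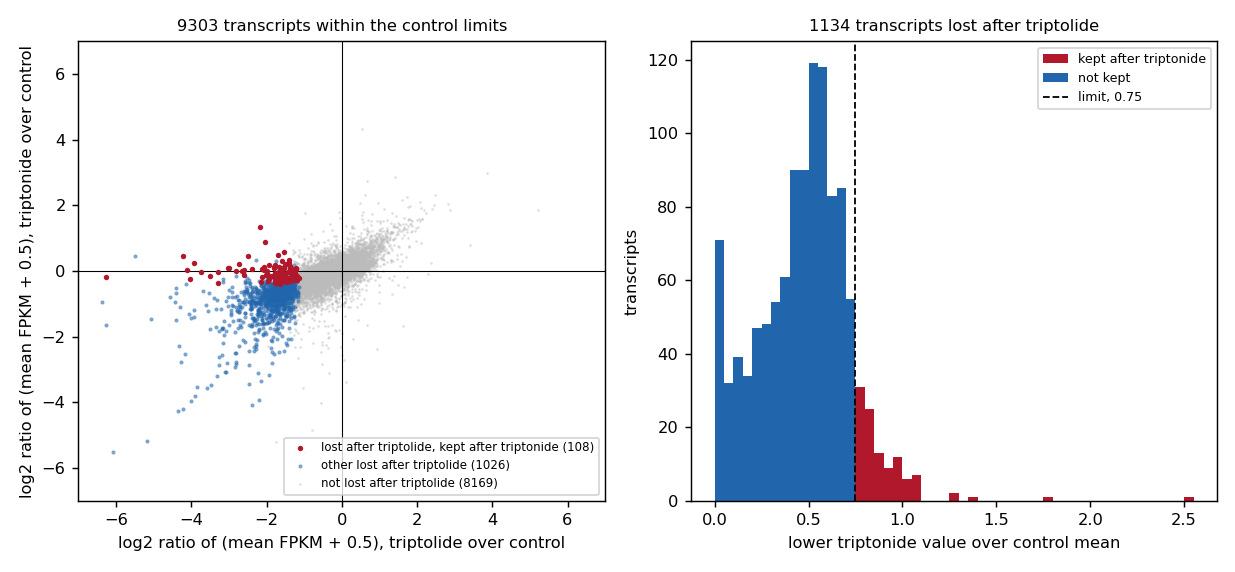
Left, log2 ratios of mean FPKM + 0.5 over control after triptolide (horizontal) and after triptonide (vertical) for the 9303 transcripts within the control limits, 1 point each, in 3 classes. Right, histogram of the lower triptonide value divided by the control mean for the 1134 transcripts lost after triptolide, with the limit at 0.75 dashed; the 108 kept transcripts are the right-hand tail of 1 continuous distribution.

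The triptolide limit and the limit of 2 FPKM also cut through continuous values. At the triptolide limit, ENSMUST00000027933 and ENSMUST00000094835 stood inside with ratios of 0.332 and 0.331, and ENSMUST00000148384 and ENSMUST00000129955 outside with 0.334 and 0.335. At the limit of 2 FPKM, the lower control value was 2.002 in ENSMUST00000126643 and 2.03 in ENSMUST00000150369 inside, and 1.997 in ENSMUST00000089362 and 1.98 in ENSMUST00000151334 outside. The limit of 200 FPKM kept out 1 transcript, ENSMUST00000220070. That transcript had 267 and 345 FPKM after triptonide, 89.2 and 88.0 FPKM after triptolide, and 315 and 251 FPKM in control. The highest control mean among the 108 was 47.4 FPKM, so they came from well below this limit.

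Most of the 108 were of low to moderate level. In the triptonide libraries their lowest, median and highest levels were 1.69, 4.89 and 52.4 FPKM in replicate 1 and 1.73, 4.52 and 48.2 FPKM in replicate 2. After triptolide the same values were 0, 0.939 and 14.4 FPKM in replicate 1 and 0, 0.991 and 14.9 FPKM in replicate 2. In control they were 2.00, 5.03 and 51.1 FPKM in replicate 1 and 2.03, 4.69 and 48.4 FPKM in replicate 2. The medians of the triptonide libraries lay within the span of the control medians or just below it, and both triptolide medians were close to 1 FPKM.

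By control mean, 53 transcripts lay from 2 to 5 FPKM, 46 from 5 to 20 FPKM and 9 from 20 to 200 FPKM. The median triptolide level was 27.4%, 24.7% and 15.8% of control in these bands, and the median triptonide level 93.5%, 90.3% and 99.5%. The highest band, with 9 transcripts, is thin. Over the 108, the triptolide mean was 24.8% of control at the median, with quartiles of 19.0% and 30.4%. For the other 1026 lost transcripts the median was 24.4%, with quartiles of 17.5% and 29.0%. Both sets were chosen with the same upper limit on this ratio, so nothing is read from the likeness.

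**Figure D2:**
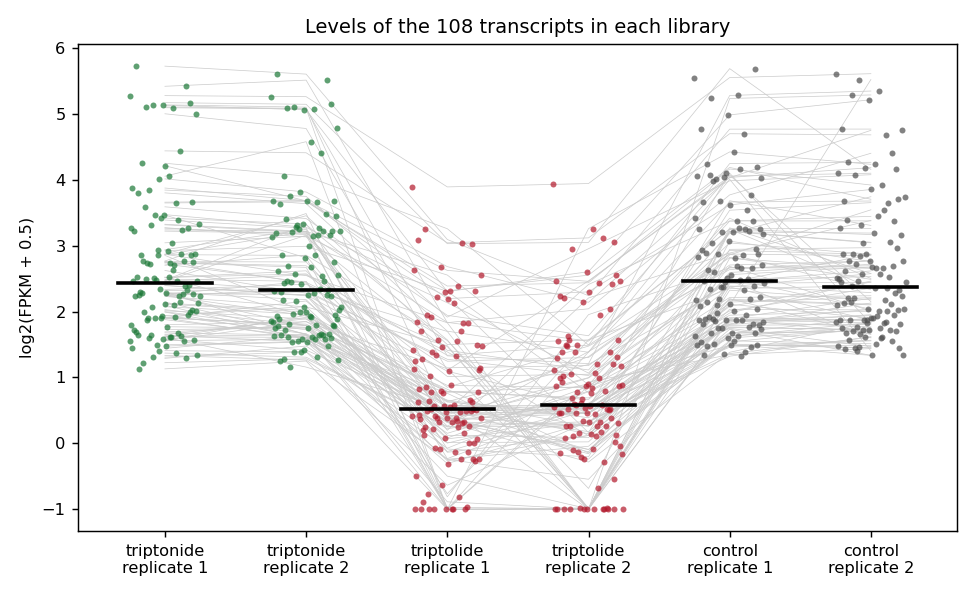
Levels of the 108 transcripts on the log2(FPKM + 0.5) scale (vertical) in the 6 libraries (horizontal), 1 point per transcript, with thin lines joining a transcript across libraries and thick bars at the median of each library. The triptonide and control medians lie near each other and both triptolide medians lie below them; points at -1 are listed at 0 FPKM.

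The 10 transcripts with the highest control means ranged from 19.7 to 47.4 FPKM in control. ENSMUST00000126178, the most abundant, had 38.3 and 37.9 FPKM after triptonide, 14.4 and 14.9 FPKM after triptolide, and 46.4 and 48.4 FPKM in control. The libraries of each group lay close together and no group overlapped another, with triptonide between triptolide and control. ENSMUST00000066177 had 33.7 and 33.2 FPKM after triptonide, 2.01 and 1.81 FPKM after triptolide, and 38.4 and 40.2 FPKM in control. Its triptolide mean of 1.91 ± 0.140 FPKM (SD, n = 2) was 4.86% of the control mean of 39.3 ± 1.31 FPKM (SD, n = 2), 20.6-fold lower.

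ENSMUST00000116669 had 33.9 and 33.4 FPKM after triptonide, was listed at 0 in both triptolide libraries, and had 37.2 and 38.6 FPKM in control. It was the most abundant of the 3 transcripts listed at 0 in both triptolide libraries. ENSMUST00000042141 had 34.6 and 32.9 FPKM after triptonide, 4.44 and 5.59 FPKM after triptolide, and 31.2 and 36.7 FPKM in control. Here the triptonide values lay between the control values, and the triptolide mean was 14.8% of control. ENSMUST00000076891 had 21.2 and 20.8 FPKM after triptonide, 7.75 and 8.19 FPKM after triptolide, and 25.5 and 25.2 FPKM in control. Its triptolide mean, at 31.4% of control, stood close to the limit of the rule.

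In 3 further abundant transcripts the libraries of a group disagreed. ENSMUST00000196843 had 31.6 and 27.0 FPKM after triptonide, 1.66 and 5.03 FPKM after triptolide, and 15.9 and 26.4 FPKM in control. ENSMUST00000021297 had 35.6 and 34.9 FPKM after triptonide, 7.67 and 7.79 FPKM after triptolide, and 51.1 and 17.4 FPKM in control. The control libraries of the second were 2.94-fold apart, with the triptonide values between them. ENSMUST00000165790 had 16.1 and 23.4 FPKM after triptonide, 0 and 9.08 FPKM after triptolide, and 21.0 and 18.3 FPKM in control. It showed the largest gap between the triptolide libraries among the 108.

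The 10 transcripts with the lowest triptolide mean relative to control include 3 listed at 0 in both triptolide libraries. Beside ENSMUST00000116669 these were ENSMUST00000152874, with 10.6 and 6.54 FPKM after triptonide and 7.89 and 6.28 FPKM in control, and ENSMUST00000027057, with 6.19 and 5.87 FPKM after triptonide and 6.52 and 5.82 FPKM in control. In both, the triptonide and control values overlapped. No fold is given for a group listed at 0.

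A further 4 of these 10 were near 0 after triptolide. ENSMUST00000118236 had 4.31 and 4.99 FPKM after triptonide, 0 and 0.00710 FPKM after triptolide, and 5.12 and 5.28 FPKM in control. ENSMUST00000105389 had 6.31 and 10.7 FPKM after triptonide, 0.0108 and 0.00112 FPKM after triptolide, and 8.83 and 7.80 FPKM in control. ENSMUST00000167058 had 4.41 and 2.64 FPKM after triptonide, 0.0407 and 0 FPKM after triptolide, and 3.20 and 2.69 FPKM in control. In ENSMUST00000105389 and ENSMUST00000167058 the triptonide libraries lay to either side of the control libraries, so their spread was wider than the distance between the group means. ENSMUST00000088402 had 2.81 and 2.88 FPKM after triptonide, 0.208 and 0.00212 FPKM after triptolide, and 3.15 and 3.16 FPKM in control, and its triptonide values lay below both control values.

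The last of the 10, beside ENSMUST00000066177 and ENSMUST00000168206, was ENSMUST00000107150. It had 7.18 and 9.01 FPKM after triptonide, 0.443 and 0.368 FPKM after triptolide, and 8.79 and 7.75 FPKM in control. The triptolide libraries lay close together and far below the other 4. Over the 108, the triptolide mean was at most 10% of control in 15 (13.9%), against 112 (10.9%) of the other 1026 lost transcripts. In 14 of the 108 (13.0%) at least 1 triptolide library was listed at 0, of which 11 had a 0 in 1 library and 3 in both, against 8.19% of the other lost transcripts.

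**Figure D3:**
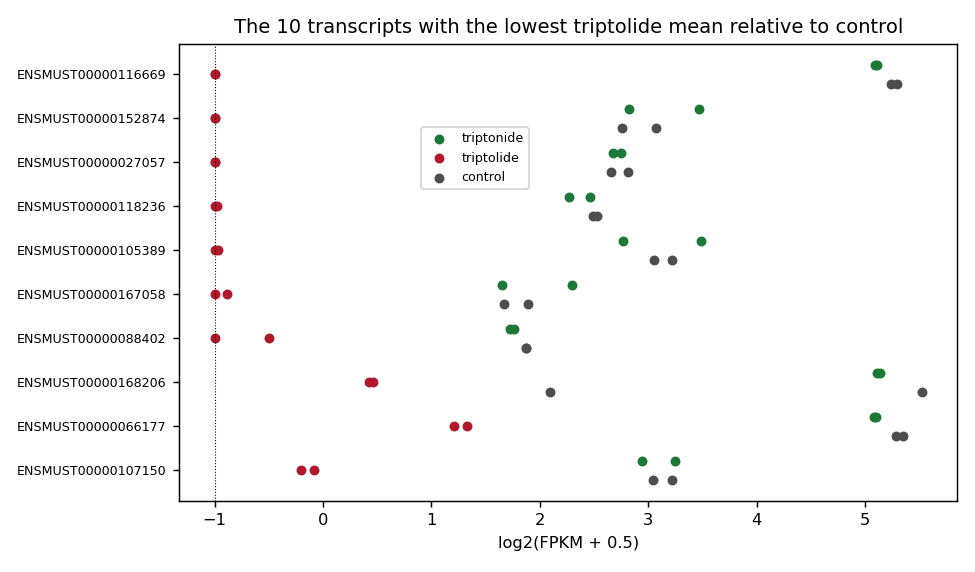
Levels of the 10 transcripts with the lowest triptolide mean relative to control, on the log2(FPKM + 0.5) scale, with 2 points per group for the 2 libraries in triptonide, triptolide and control; the dotted line marks 0 FPKM. The 2 triptolide points of ENSMUST00000116669, ENSMUST00000152874 and ENSMUST00000027057 lie on that line.

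The rule set a floor and no ceiling for triptonide, and the transcripts spread to both sides of control. The triptonide mean was below both control values in 51 transcripts, between them in 34 and above both in 23. Both triptonide libraries were below both control libraries in 40 of the 108 (37.0%) and above both in 7 (6.48%). Among all 9303 transcripts within the control limits these shares were 45.4% and 23.2%. The share above both controls was thus smaller among the 108, and with a choice on triptonide and control values neither share is a result about them.

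Among the 5 transcripts with the highest triptonide mean relative to control, 3 had both triptonide values above both control values. ENSMUST00000135836 had 42.3 and 45.2 FPKM after triptonide, 3.06 and 3.62 FPKM after triptolide, and 13.2 and 20.7 FPKM in control, so its triptonide mean was 259% of control while its triptolide mean was 19.8%. ENSMUST00000176059 had 52.4 and 48.2 FPKM after triptonide, 8.04 and 4.23 FPKM after triptolide, and 26.8 FPKM in each control library. Its triptonide mean was 188% of control. In both transcripts the 3 groups did not overlap, with triptonide highest, control next and triptolide lowest. ENSMUST00000166151 showed the same order at a low level, with 4.29 and 2.94 FPKM after triptonide, 0.333 and 0.587 FPKM after triptolide, and 2.32 and 2.23 FPKM in control.

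In the other 2 of these 5 the libraries of a group disagreed. ENSMUST00000110835 had 5.06 and 9.48 FPKM after triptonide, 2.47 and 0.00603 FPKM after triptolide, and 4.69 and 5.46 FPKM in control, so its triptonide and control values overlapped. ENSMUST00000168206 had 34.7 and 33.9 FPKM after triptonide, 0.840 and 0.879 FPKM after triptolide, and 3.78 and 45.5 FPKM in control. Its control libraries were 12.0-fold apart. With control replicate 1 alone the triptonide values were far above control, and with control replicate 2 alone they were below it.

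Disagreement between libraries was uneven over the groups. A gap of more than 1 unit on the log2(FPKM + 0.5) scale between the libraries of a group was seen for 0 of the 108 transcripts in triptonide, 26 (24.1%) in triptolide and 5 (4.63%) in control. Among the other 1026 lost transcripts these shares were 15.2%, 14.9% and 6.43%, and among all 9303 they were 5.79%, 7.04% and 3.67%. The rule set a floor for each triptonide and control value, but only upper limits for the triptolide values. A wide gap could thus pass more easily in triptolide than in triptonide. Nothing is therefore read from the unevenness among the 108 or from its distance to the other shares.

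The 5 transcripts with a wide gap in control were named after their values were seen. Beside ENSMUST00000168206 and ENSMUST00000021297 they were ENSMUST00000111057, ENSMUST00000124922 and ENSMUST00000131940. ENSMUST00000124922 had 10.2 and 9.56 FPKM after triptonide, 0.983 and 0.949 FPKM after triptolide, and 16.7 and 3.03 FPKM in control. ENSMUST00000111057 had 11.5 and 10.2 FPKM after triptonide, 3.35 and 2.604 FPKM after triptolide, and 16.3 and 3.94 FPKM in control. ENSMUST00000131940 had 9.47 and 8.71 FPKM after triptonide, 0 and 2.12 FPKM after triptolide, and 15.6 and 2.15 FPKM in control. In these 3, control replicate 2 stood closer to the triptolide libraries than to control replicate 1.

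Among the 26 with a wide gap in triptolide, ENSMUST00000165790, ENSMUST00000091348 and ENSMUST00000037548 had the widest. ENSMUST00000091348 had 6.81 and 5.34 FPKM after triptonide, 3.06 and 0 FPKM after triptolide, and 9.02 and 4.64 FPKM in control. ENSMUST00000037548 had 5.03 and 8.43 FPKM after triptonide, 0.0701 and 3.38 FPKM after triptolide, and 5.84 and 5.82 FPKM in control. In each of the 3, 1 triptolide library was at or near 0 and the other was measurable at several FPKM.

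A choice on 1 library per group shows how far the pattern held in libraries that the choice did not use. With the replicate 1 libraries alone, the same limits picked 469 transcripts, whose triptolide level was 22.7% of control at the median in those libraries. In the replicate 2 libraries the median triptolide level of these transcripts was 40.8% of control, against 71.1% over all 10272 transcripts within the control limits in control replicate 1. Their median triptonide level there was 73.2% of control, against 90.6% over all. The loss after triptolide was thus smaller in the unused libraries than in the choosing ones and still below the general level, while the triptonide level was no longer within the limit at the median.

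The reverse choice on the replicate 2 libraries picked 348 transcripts with a median triptolide level of 19.2% of control. In the replicate 1 libraries that level was 47.4%, against 69.2% over all 10485 transcripts within the limits in control replicate 2, and the triptonide level was 92.2%, against 93.0% over all. Thus the median triptonide level held with 1 direction of choice and not with the other. In the unused libraries, 36.2% of the 469 and 42.8% of the 348 met the triptonide condition within the control limits. Over all transcripts 61.6% and 64.3% did, so both shares of the chosen were lower. The unused control library itself was within the limits for 83.2% of the 469 and 70.4% of the 348. Over all transcripts that held for 90.4% and 88.6%. The lower shares thus also hold transcripts whose control value left the limits. In the unused libraries the triptolide condition was met within the control limits by 35.6% and 25.3% of the chosen, against 12.2% and 12.6% over all. In total 46 transcripts met the whole rule in both sets of single libraries. They make up 9.81% of the 469 and 13.2% of the 348, where 2.39% and 3.72% of all transcripts within the control limits met the rule in the libraries not used for the choice.

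Of these 46 transcripts, 40 belong to the 108. They include the abundant ENSMUST00000126178, ENSMUST00000066177, ENSMUST00000116669, ENSMUST00000042141, ENSMUST00000076891, ENSMUST00000176059 and ENSMUST00000196843, as well as ENSMUST00000135836. Another 54 of the 108 met the limits in 1 of the 2 sets of single libraries, and 14 met them in neither and entered through the means of 2 libraries. ENSMUST00000168206, ENSMUST00000021297 and ENSMUST00000165790 are not among the 46.

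**Figure D4:**
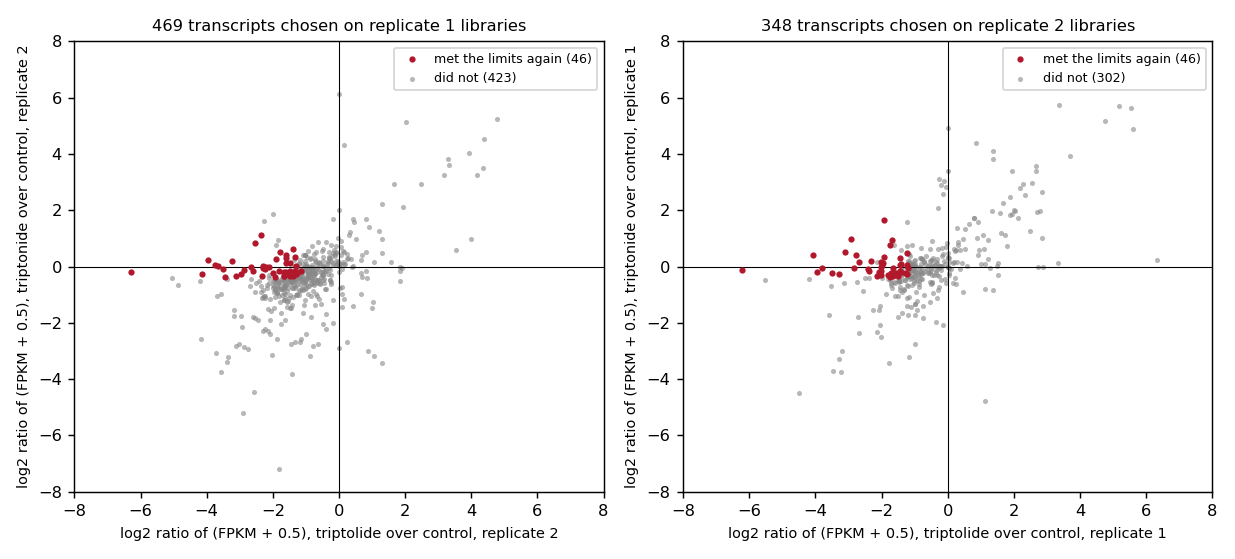
Transcripts chosen on 1 library per group, shown in the libraries not used for the choice, as log2 ratios of FPKM + 0.5 over control after triptolide (horizontal) and after triptonide (vertical). Left, 469 chosen on replicate 1; right, 348 chosen on replicate 2; the 46 that met the limits again are marked in red and the others scatter to both sides of 0 on both axes.

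A fit over the whole table gives the replicate spread a common measure. It used limma on log2(FPKM + 0.5) for the 23407 transcripts that reached 0.5 FPKM in 2 or more libraries, with calls at an adjusted p under 0.05. All 108 passed this filter through their control values. Of them, 86 were called lower after triptolide than in control, where 23.1% of all transcripts tested were called lower. The transcripts tested include ones under 2 FPKM in control, so they are not a set like the 108. With a filter of 1 FPKM in at least 2 libraries, 28.5% of all were called lower, and again 86 of the 108. Against triptolide, 75 were called higher after triptonide, where 12.1% of all were, and these 75 are among the 86. The remaining 22 of the 108 were called in neither comparison. The rule used these contrasts, so nothing is read from the counts beyond how many of the 108 exceed the spread that the fit assigns them. Without triptonide replicate 1 the 75 became 11, and without triptonide replicate 2 they became 33. In the same fits the share of all transcripts called higher was 0.291% and 4.08%.

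Against control, 1 of the 108 was called higher after triptonide, ENSMUST00000135836, and 1 lower, ENSMUST00000126178, where 6.27% and 4.36% of all transcripts tested were called. The call of the lower one was lost with any 1 of the 6 libraries left out, and none of the 108 was called in either direction without either triptonide library, without the filter on low values or with the replicate block. The median log2 fold change of the 108 was -1.68 for triptolide against control, 1.62 for triptonide against triptolide and -0.10 for triptonide against control. Over all transcripts tested the medians were -0.26, 0.24 and -0.01. With median-of-ratios scaling, which brought these to 0.02, 0.01 and 0.03, the medians of the 108 were -1.40, 1.39 and -0.06. Under that scaling 78 of the 108 were called lower after triptolide than in control, where 14.1% of all were, and 18.7% of all were called higher, against 12.4% with the values as deposited. Higher after triptonide than triptolide were 70 of the 108, where 5.35% of all were, and 7.53% of all were called lower, against 3.62% as deposited. Triptonide libraries near control are what the rule asked for, and a transcript that was not called is not shown to be at the control level.

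Which transcripts belong depended on the scaling of the libraries. With median-of-ratios scaling the rule picked 59 transcripts, of which 51 are among the 108. With quantile normalization it picked 69, of which 55 are among the 108. With each library divided by its sum outside the 100 most abundant transcripts, it picked 86, of which 64 are among the 108. Under each of these scalings, between 47.2% and 59.3% of the 108 stayed in. With fewer libraries the rule is easier to meet, and it picked 199 and 273 transcripts when triptonide replicate 1 or 2 was left out, both times with the whole 108 among them. When triptolide replicate 1 or 2 was left out it picked 169 and 189, with 83 and 85 of the 108. Leaving out control replicate 1 or 2 gave 130 and 126, with 81 and 76 of the 108.

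Rows near a member in the table were looked at because the quantification apportions fragments between overlapping transcripts. The order of rows is not explained in the sources used here, and whether nearby rows belong to 1 gene is not given. Of the 108, 18 (16.7%) had a row within 3 rows that was higher in both triptolide libraries than in both control libraries, at least 2-fold and by at least 2 FPKM. That share was 11.7% for the other 1026 lost transcripts and 11.5% for all 9303, so it was not far from the background. Summed over the member and 3 rows to each side, the median triptolide level was 47.5% of control for the 108, 42.9% for the other lost transcripts and 77.0% for all. The sum at the median lay between the member alone, at 24.8%, and all transcripts. It includes the member, which was chosen to be low, so nothing is read from that place. These values add FPKM of different transcripts, and a division of fragments between rows was not tested.

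In several abundant members the nearby row was high where the member was low. Next to ENSMUST00000042141, ENSMUST00000186380 had 16.2 and 15.7 FPKM after triptonide, 37.4 FPKM in each triptolide library, and 20.4 and 15.9 FPKM in control. Next to ENSMUST00000116669, ENSMUST00000092096 had 5.97 and 6.33 FPKM after triptonide, 22.4 and 26.7 FPKM after triptolide, and 8.49 and 5.44 FPKM in control. Within 2 rows of ENSMUST00000066177, ENSMUST00000111691 had 0.716 and 0.829 FPKM after triptonide, 15.1 and 16.2 FPKM after triptolide, and 0.793 and 0.677 FPKM in control. In these 3 pairs the triptonide libraries resembled control in both rows, while in the triptolide libraries the order of the rows was the other way round.

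A pair near ENSMUST00000168206 changed places between the 2 control libraries themselves. ENSMUST00000022469, the row after it, had 0.671 and 0.619 FPKM after triptonide, 19.1 and 14.7 FPKM after triptolide, and 19.0 and 0.498 FPKM in control. In control replicate 1 the pair looked like the triptolide libraries, and in control replicate 2 like the triptonide libraries. No other of the 5 members with a wide gap in control had an opposite gap of this size in a row within 3 rows with a control mean of at least 2 FPKM. Control replicate 1 of ENSMUST00000168206, at 3.78 FPKM, was thus nearer to the triptolide libraries than to control replicate 2.

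A pair of other nearby rows was higher after triptolide, but neither row resembled control in both triptonide libraries. Within 2 rows of ENSMUST00000126178, ENSMUST00000090257 had 11.1 and 0 FPKM after triptonide, 14.6 and 16.7 FPKM after triptolide, and was listed at 0 in both control libraries. In both triptolide libraries it stood slightly above ENSMUST00000126178, which had 14.4 and 14.9 FPKM there. Next to ENSMUST00000120276, ENSMUST00000003726 had 28.2 and 28.0 FPKM after triptonide, 14.96 and 16.1 FPKM after triptolide, and 0.959 and 1.18 FPKM in control. ENSMUST00000120276 itself was low throughout, with 2.73 and 2.95 FPKM after triptonide, 1.27 and 0.404 FPKM after triptolide, and 2.41 and 2.85 FPKM in control. These examples are the largest gains among the 18 and were picked by their values.

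**Figure D5:**
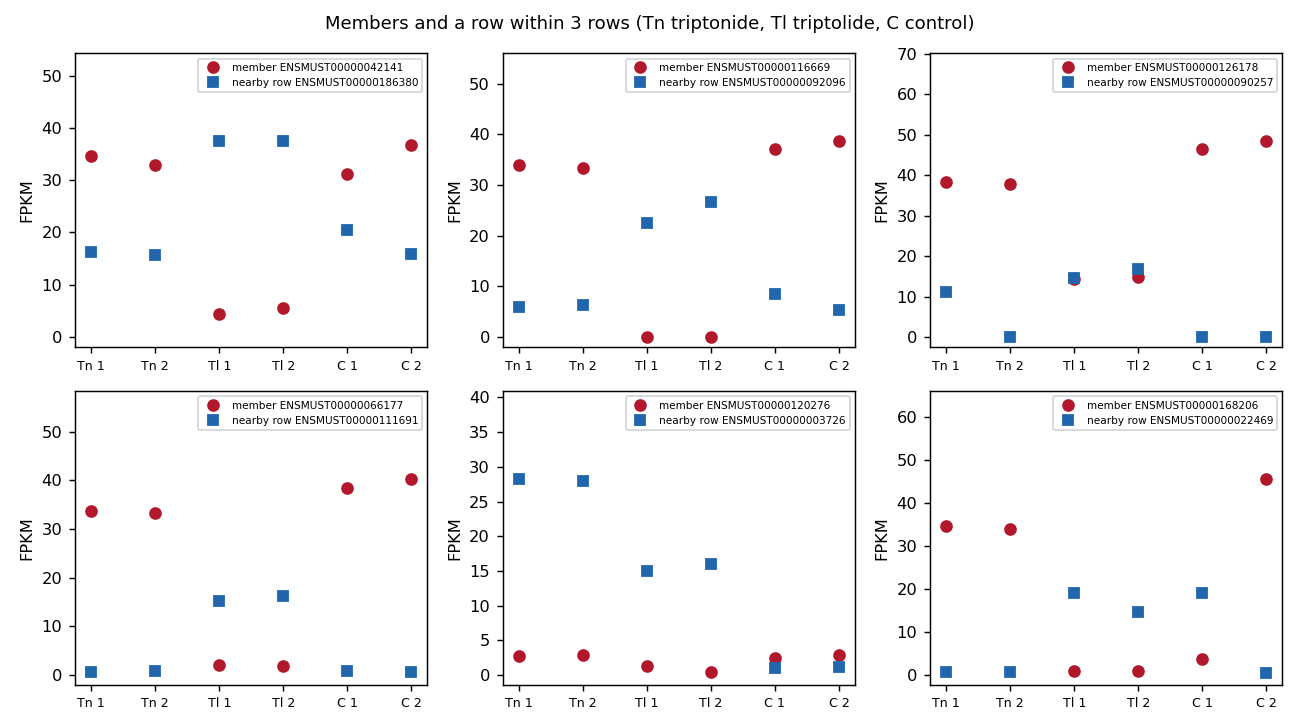
FPKM (vertical) of 6 members (circles) and a row within 3 rows of each (squares) in the 6 libraries, with Tn for triptonide, Tl for triptolide, C for control and the number for the replicate. The first 5 panels hold the largest gains of a nearby row after triptolide, and the last panel ENSMUST00000168206 with ENSMUST00000022469, which changed places between the control libraries.

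The 108 were otherwise scattered over the table. In 3 pairs, 2 members lay within 3 rows of each other. ENSMUST00000126178 and ENSMUST00000053020 were 2 rows apart, the second with 3.24 and 2.51 FPKM after triptonide, 1.19 and 0.346 FPKM after triptolide, and 3.17 FPKM in each control library. ENSMUST00000111057 and ENSMUST00000111059 were 3 rows apart, the second with 5.67 and 4.36 FPKM after triptonide, 0.411 and 0.586 FPKM after triptolide, and 5.94 and 3.53 FPKM in control. ENSMUST00000028549 and ENSMUST00000110991 were also 3 rows apart. ENSMUST00000028549 had 6.20 and 5.98 FPKM after triptonide, 1.52 and 1.57 FPKM after triptolide, and 7.74 and 6.82 FPKM in control. ENSMUST00000110991 had 3.48 and 2.55 FPKM after triptonide, 0.345 and 0.185 FPKM after triptolide, and 2.69 and 2.76 FPKM in control. In the middle pair the control libraries of ENSMUST00000111057 were 4.14-fold apart.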

How the data were processed

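RNA of 6 GC2 libraries in 3 groups was sequenced after depletion of ribosomal RNA, with strand-specific kits and paired ends, per the labels' protocols. The table deposited by the authors holds 1 FPKM value per transcript and library, with 65535 rows; that is the row limit of an older spreadsheet format, so it may be part of a longer table. STAR and StringTie, without versions, and the human build hg19 are named in the submitters' processing notes, while the IDs are mouse; the build is unsettled and no coordinates are given. Columns were assigned by the samples' titles. Absolute depth is unknown; relative depths came from steps among FPKM values from 0.01 to 0.2, where 13 of 15 library pairs lay within 0.015 log2 units of the fitted ratios.

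The members, the rule and the tests were chosen with earlier results of these data known. The rule was applied with pandas 2.3.3 in Python 3.11.15. Group means on log2(FPKM + 0.5) were fitted with limma 3.58.1 in R 4.3.3 with an intensity trend, in 1 fit over 6 libraries. Benjamini-Hochberg adjustment ran over all 23407 transcripts tested. The fit was also run on simulated independent normal values with known falls, which do not copy exact 0 values or overlapping transcripts. That run is no check of the calls given here. Named transcripts are the 10 with the highest control mean, the 10 with the lowest triptolide ratio, the 5 with the highest triptonide ratio, the 2 to each side of each limit and the 3 with the widest triptolide gap; others are named as chosen by their values. The looks at nearby rows were added after seeing the data. Gene lists and cell type markers need gene names and were not used. P-values set a difference between groups against the spread between these libraries, which may be technical.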

Additional observations from a re-analysis of the deposited data

How the results depend on the processing

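The number of transcripts chosen moved with nearly every limit and with the scaling. It was 59 with median-of-ratios scaling and 69 with quantile normalization, against 108 as deposited. It was 617 and 31 with triptolide at most 1/2 or 1/5 of control, 568 and 39 with triptonide at least 0.5 or 0.9 times control, and 188 and 47 with control at least 1 or 5 FPKM. The replicate 1 or replicate 2 libraries alone gave 469 and 348, and leaving out each library in turn gave 126 to 273. The share of transcripts chosen on 1 library per group that met the rule in the other libraries was 9.81% with the replicate 1 libraries and 13.2% with the replicate 2 libraries choosing.

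In the settings with no library left out, 77 to 86 of the 108 were called lower after triptolide than control. Of all transcripts tested, 9.7% were called lower without the filter on low values. With a filter of 1 FPKM in at least 2 libraries, 28.5% were. The rule used this contrast, so nothing is read from the steadiness of the count. Among the 108, those called higher after triptonide than triptolide ranged from 11 to 63 with each library left out. Over all transcripts, those called in either direction for this comparison ranged from 91 to 1940. These ranges thus count different things and are not set against each other. Counts called after triptonide against control were 0 to 2 among the 108 and 242 to 1466 over all with each library left out, and those over all for triptolide against control 4787 to 7412. For triptonide against control, 0 of the 108 were called without the filter on low values, with 1273 over all. With each library divided by its sum without the 100 most abundant transcripts, 1 was called for triptonide against control, with 2419 over all. For the same comparison, 1 was called without the intensity trend, with 1689 over all. The fit of only the 2 groups compared also called 1, with 1552 over all. For triptonide against triptolide that fit of 2 groups gave 1820 over all. The causes of these moves were not tested, though fewer libraries leave fewer degrees of freedom.

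Deviations of same-numbered libraries correlated at 0.014, 0.0096 and -0.037 between the groups, so no common effect of the replicate number was seen. These correlations cannot show whether same-numbered libraries were handled together. With the replicate block, 1639 transcripts were called for triptonide against triptolide and 598 for triptonide against control, where 0 of the 108 were called. With 1 or 10 rows to each side in place of 3, 7 and 35 members had a row higher after triptolide, so that count depends on the window.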
